A study of Homo sapiens with 94 samples.

Results

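The genes described are 36 genes of the hypoxia response and of glycolysis, out of 20239 genes measured by RNA-seq in tumors treated with K-975, an inhibitor of the TEAD transcription factors. They were picked by their symbols, around the glucose transporter SLC2A3, which had been seen to be low 24 h after the compound in these same tumors. The difference between K-975 and vehicle at 24 h therefore chose the set, and it is given below as a description without a test. The other times, the untreated tumors and the spread among tumors within a group were not part of that difference, and tests are given there. Those tests, and the limit for leaving out libraries, were still set with earlier results of these data known. Their p values are therefore not those of a plan made in advance. The vehicle tumors at 24 h were part of the difference that chose the set, so their comparison with untreated tumors is a description as well.

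RNA was measured in 94 subcutaneous xenograft tumors of NCI-H226, a mesothelioma cell line of human pleural origin that lacks NF2, a brake on YAP1 and TEAD activity. The hosts were female SCID mice, which lack mature T and B cells and keep their own myeloid and stromal cells. The cell line and the host strain were shared by all groups, so no comparison involves an NF2-intact tumor or an intact immune system. K-975, which occupies the lipid pocket of TEAD proteins covalently, was given once by mouth, and tumors were taken in 3 separate studies at 1 h, 3-6 h and 24 h.

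The groups were untreated tumors (5 in each study), vehicle, and K-975 at 30, 100 or 200 mg/kg. Vehicle, a mixture of ethanol, Solutol and glucose, and the 200 mg/kg dose were given at 20 mL/kg, and the 30 and 100 mg/kg doses at 10 mL/kg. At 1 h each treatment had 5 tumors, at 24 h vehicle had 4 and each dose 5, and at 3-6 h there were 10 tumors per treatment, housed as 2 cage groups of 5. The labels do not say which cage group was taken at 3 h and which at 6 h. At 1 h and 24 h each treatment filled 1 cage group, which leaves cage and treatment inseparable, and study and time cannot be told apart across the 3 studies.

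Hypoxia-inducible factors (HIFs) are transcription factors whose alpha subunits, HIF1A and EPAS1, are hydroxylated by the EGLN enzymes when oxygen is present and are then destroyed through VHL. When oxygen is short the subunit persists, pairs with ARNT and binds a short DNA core, A or G followed by CGTG, in the control regions of genes for glucose uptake, glycolysis, lactate production, blood vessel growth, pH control and mitophagy. Solid tumors that outgrow their blood supply express these genes strongly, and SLC2A1 protein is used by pathologists to tell mesothelioma from reactive mesothelium.

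Expression is given as FPKM, the number of fragments relative to transcript length and to the size of the library. Of the 94 libraries, 3 were shallow, with 702 (30 mg/kg at 24 h, replicate 1), 7196 (100 mg/kg at 24 h, replicate 5) and 8531 genes (200 mg/kg at 1 h, replicate 1) at 1 FPKM or more, against 11344 to 11665 in the remaining 91. Results are from these 91 libraries, and values with all 94 are given where they differ. NF2 was at 0 in 83 of 94 libraries and at most 0.244 FPKM in the others. Mesothelial markers were present in every group, with at least 7 of 8 at a median of 1 FPKM or more. CCN1 and CCN2, established YAP1 and TEAD targets used here as a check of drug action, were lower than vehicle at 3-6 h after 200 mg/kg (CCN1 125 against 205.0 FPKM, log2 difference -0.72 ± 0.13 SE, limma adjusted p = 0.0022).

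The control regions of 31 of the 36 genes could be read from RefSeq promoters (GRCh38.p14, 250 bases before each annotated start). SLC2A3, VEGFA, NDRG1, BNIP3L and HILPDA were not among them. The HIF core (ACGTG or GCGTG, on either strand, so that the palindrome CACGTG counts as 2 overlapping matches) was present in 34 of 51 windows of these genes (66.7%), against 43.2% of all 35116 windows, and in at least 1 window of 26 of 31 genes. The TEAD core GGAATG, on either strand, was present in 5 of 51 windows (9.8%), against 11.9% of all windows. A match is a description of the letters, not evidence of a bound site. The stretches below show the HIF core in capitals, for enzymes that recur in the results (PGK1, LDHA, GAPDH, TPI1 and HK2), for BNIP3 with its run of cores, and for EGLN3, whose stretch held none. Each is the longest stretch of its window that lies outside annotated exons.
PGK1 (chrX:78103998-78104173, plus strand): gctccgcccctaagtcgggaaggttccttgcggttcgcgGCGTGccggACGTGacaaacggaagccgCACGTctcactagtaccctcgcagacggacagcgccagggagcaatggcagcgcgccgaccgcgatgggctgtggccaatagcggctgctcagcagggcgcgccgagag
LDHA (chr11:18394313-18394387, plus strand): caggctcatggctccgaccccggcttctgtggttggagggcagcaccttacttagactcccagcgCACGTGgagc
GAPDH (chr12:6535142-6535263, plus strand): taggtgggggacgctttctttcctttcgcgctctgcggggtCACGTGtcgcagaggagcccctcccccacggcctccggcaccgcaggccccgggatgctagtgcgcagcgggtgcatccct
TPI1 (chr12:6867855-6868099, plus strand): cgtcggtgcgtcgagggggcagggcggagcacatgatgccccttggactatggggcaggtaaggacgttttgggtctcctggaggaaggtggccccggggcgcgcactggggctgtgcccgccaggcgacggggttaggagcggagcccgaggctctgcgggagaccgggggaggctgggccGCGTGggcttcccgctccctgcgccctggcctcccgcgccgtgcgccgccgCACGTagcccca
HK2 (chr2:74834920-74835169, plus strand): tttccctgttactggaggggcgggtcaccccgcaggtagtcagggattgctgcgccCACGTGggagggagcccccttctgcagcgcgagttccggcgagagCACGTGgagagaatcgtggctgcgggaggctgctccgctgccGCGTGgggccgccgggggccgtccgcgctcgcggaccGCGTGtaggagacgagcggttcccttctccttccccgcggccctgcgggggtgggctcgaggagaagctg
BNIP3 (chr10:131982014-131982173, minus strand): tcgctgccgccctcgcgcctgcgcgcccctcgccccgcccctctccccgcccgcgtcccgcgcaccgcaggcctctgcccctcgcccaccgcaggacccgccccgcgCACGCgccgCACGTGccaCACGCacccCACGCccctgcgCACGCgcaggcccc
EGLN3 (chr14:33951082-33951324, minus strand): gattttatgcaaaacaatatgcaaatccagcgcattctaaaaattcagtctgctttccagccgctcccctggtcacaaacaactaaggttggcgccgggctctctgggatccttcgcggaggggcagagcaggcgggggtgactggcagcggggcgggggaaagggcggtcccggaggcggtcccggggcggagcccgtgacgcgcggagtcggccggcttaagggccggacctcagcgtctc
HK2 and BNIP3 held 6 matches each, PGK1 held 3, and LDHA, GAPDH and TPI1 held 2 each.

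Most members were well expressed without any compound. Over the 15 untreated tumors, the mean level was highest for GAPDH (4135 FPKM), followed by PKM (914), ENO1 (913), LDHA (879.6) and ALDOA (659), all enzymes of glycolysis or of its exit to lactate. NDRG1, a stress gene of the hypoxia response, averaged 437 FPKM, whereas CA12, a membrane carbonic anhydrase, was lowest at 2.17 FPKM. Target enrichment was used to make the libraries, so a level also depends on how well a gene was captured. All 36 members passed the filter on low values (1 FPKM or more in at least 4 libraries), and 34 of them were at 1 FPKM or more in all 91 libraries.

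Several glycolytic enzymes were among the steadiest members, including the abundant ENO1 and PKM. The standard deviation of log2(FPKM + 1) among tumors of a group was 0.09 for PFKL, 0.10 for ENO1 and 0.10 for PKM, all within the lowest 3% of genes tested. By contrast it was 0.75 for HK2 (percentile 98.2), 0.70 for HILPDA, 0.63 for SLC2A3 and 0.61 for NDRG1 (percentile 95.1). Other hypoxia-induced members lay lower in this order, such as VEGFA at percentile 83.1.

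At 24 h after K-975, the glucose transporters, several glycolytic enzymes and the hypoxia-induced peptide gene ADM were lower than in vehicle tumors. With 200 mg/kg, 12 of 36 members were past an adjusted limma p of 0.05, all of them lower, where 7.41% of all 13036 genes tested were past it, 3.61% lower and 3.8% higher. With 100 mg/kg there were 6, again all lower (1.12% of all genes, 0.537% lower and 0.583% higher), and with 30 mg/kg there were 0 (0.0384% of all genes, 15 members at an unadjusted limma p under 0.05). The estimate was lower than vehicle for 35, 35 and 34 of the 36 members at 200, 100 and 30 mg/kg, and the median log2 difference was -0.38, -0.38 and -0.28, beside 0.04, 0.03 and 0.02 over all genes. These shares are those of genes chosen from this very contrast, so the threshold serves here, and for each gene below, only to describe a difference relative to the spread between tumors, and the 3 doses share the same 4 vehicle tumors.

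**Figure D1:**
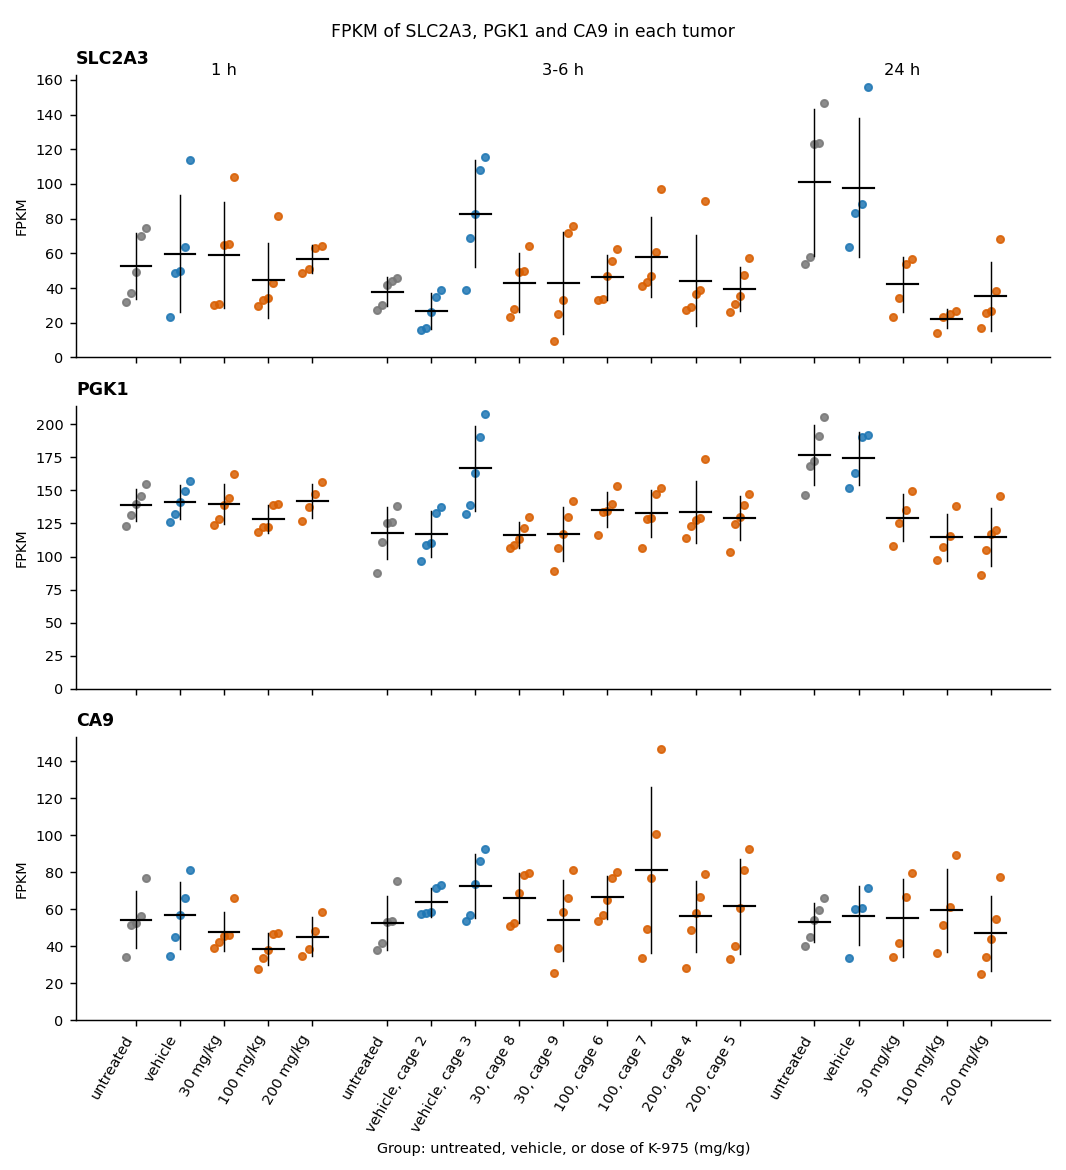
FPKM of SLC2A3, PGK1 and CA9 in each tumor (points) by group and sampling time, with bars for the mean ± SD over the tumors of a group, untreated tumors in gray, vehicle in blue and K-975 in orange. At 24 h all 4 tumors given 100 mg/kg lie below all 4 vehicle tumors for SLC2A3 and PGK1, whereas CA9 overlaps between all groups.

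Both glucose transporters were lower after K-975. SLC2A3, which carries glucose into cells with high affinity, was at 88.7, 83.3, 63.4 and 156 FPKM in the 4 vehicle tumors. It was at 16.8, 68.1, 25.6, 26.8 and 38.3 FPKM after 200 mg/kg, at 25.1, 14.3, 23.1 and 26.5 after 100 mg/kg, and at 34.3, 53.8, 23.3 and 56.8 after 30 mg/kg. All 8 tumors of the 2 lower doses lay below the lowest vehicle tumor, and 1 of the 5 tumors given 200 mg/kg lay above it. The log2 difference from vehicle was -1.53 ± 0.41 (SE), -2.04 ± 0.43 and -1.20 ± 0.43 at 200, 100 and 30 mg/kg, so the values did not order by dose. Untreated tumors of the same study were at 147, 53.6, 58.1, 123 and 123 FPKM, which overlapped the vehicle tumors.

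SLC2A1, the transporter found on most cells and a classical HIF target, was at 125, 126, 101 and 140.1 FPKM in vehicle tumors and at 27.0, 93.1, 49.1, 69.3 and 69.6 FPKM after 200 mg/kg, without overlap. Its log2 difference was -1.09 ± 0.32 at 200 mg/kg, where it passed the threshold. The lower doses gave -1.03 ± 0.34 (100 mg/kg) and -0.92 ± 0.34 (30 mg/kg) without a call. SLC2A14, a near-identical copy of SLC2A3 that could share its reads, was low in every group (group means between 0.28 and 1.22 FPKM) and was at 0.94 FPKM after 200 mg/kg against 0.674 in vehicle.

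Of the 10 genes that take glucose from hexokinase to the triose phosphates, 3 passed the threshold at 200 mg/kg (7.41% of all genes). None passed at 100 mg/kg (1.12% of all genes), and the median log2 difference was -0.38 at 200 mg/kg. TPI1, which interconverts the triose phosphates, was at 282, 298, 261 and 269 FPKM in vehicle tumors and 171, 233, 198, 229.7 and 260.3 FPKM after 200 mg/kg (log2 -0.36 ± 0.09), with the highest treated tumor just under the lowest vehicle tumor. PFKP, the platelet-type phosphofructokinase, averaged 197 ± 11.1 FPKM (SD, n = 4) in vehicle and 153 ± 21.4 (n = 5) after 200 mg/kg (log2 -0.37 ± 0.10), with replicate 2 at 190.1 inside the vehicle range. ALDOC, the less abundant aldolase, averaged 26.4 ± 10.5 and 14.3 ± 2.53 FPKM (log2 -0.79 ± 0.26), and the 5 treated tumors lay below all 4 vehicle tumors.

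HK2, the inducible hexokinase, had a larger estimate than these and did not pass the threshold. It was at 38.4, 45.1, 31.7 and 49.2 FPKM in vehicle tumors and at 4.29, 45.9, 18.1, 30.5 and 14.0 FPKM after 200 mg/kg (log2 -1.16 ± 0.48). Treated replicate 2 was as high as vehicle and replicate 1 was far below it. HK1, the constitutive hexokinase, gave -0.42 ± 0.16, and the bifunctional regulators of phosphofructokinase gave -0.67 ± 0.34 (PFKFB4) and -0.38 ± 0.26 (PFKFB3). Differences were smallest for ALDOA (-0.26 ± 0.10), GPI, the isomerase after hexokinase (-0.11 ± 0.10), and PFKL, the liver-type phosphofructokinase (-0.10 ± 0.06).

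From the triose phosphates to pyruvate, 3 of 6 genes passed the threshold at 200 mg/kg (7.41% of all genes) and 1 at 100 mg/kg (1.12%). ENO1, the main enolase, was at 969, 994, 1022 and 1056 FPKM in vehicle tumors and at 643, 945, 704, 750.0 and 856 FPKM after 200 mg/kg (log2 -0.39 ± 0.07). PGK1, which makes the first ATP of the pathway, was at 163, 190.1, 152 and 192 FPKM in vehicle tumors, at 85.8, 117, 105, 146 and 120.1 after 200 mg/kg (-0.61 ± 0.13) and at 138, 115, 97.2 and 107 after 100 mg/kg (-0.61 ± 0.14). GAPDH, the dehydrogenase ahead of PGK1, averaged 4460.0 ± 234 FPKM in vehicle and 3668 ± 459 after 200 mg/kg (-0.29 ± 0.08). For each of these 3 genes the 5 tumors given 200 mg/kg lay below all 4 vehicle tumors. The enzymes with no call were ENO2, the neuronal enolase (-0.61 ± 0.25), PGAM1, the mutase (-0.32 ± 0.14), and PKM, the pyruvate kinase (-0.15 ± 0.07). Many glycolytic enzymes have processed pseudogenes, and how their shared reads were counted is not given in the sources used here.

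LDHA, which reduces pyruvate to lactate, passed the threshold at both of the higher doses. It was at 967, 922, 877 and 1106 FPKM in vehicle tumors, at 629.6, 817, 618, 735 and 796 after 200 mg/kg (log2 -0.43 ± 0.09) and at 824, 745, 675 and 759.9 after 100 mg/kg (-0.36 ± 0.09). PDK1, a kinase of the pyruvate dehydrogenase complex, gave -0.31 ± 0.21 at 200 mg/kg and -0.78 ± 0.22 at 100 mg/kg, with no call at either dose. Both genes of pyruvate fate thus had lower estimates at both doses, and only LDHA of the pair passed.

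Among secreted, membrane and stress genes, 1 of 7 passed at 200 mg/kg (7.41% of all genes) and 2 of 7 at 100 mg/kg (1.12%). Counts this small say little about the role as a whole. ADM, which encodes the vasodilator peptide adrenomedullin, was at 141, 146, 108 and 123 FPKM in vehicle tumors, at 12.4, 52.5, 32.7, 66.0 and 54.0 after 200 mg/kg (log2 -1.74 ± 0.37) and at 49.3, 41.2, 19.7 and 62.8 after 100 mg/kg (-1.66 ± 0.39). HILPDA, a lipid droplet protein, was at 22.0, 20.3, 13.0 and 16.3 FPKM in vehicle tumors and at 5.43, 5.09, 3.30 and 4.67 after 100 mg/kg, where it passed (-1.74 ± 0.48). After 200 mg/kg its estimate was -1.09 ± 0.46, with 1 tumor at 17.3 FPKM inside the vehicle range. VEGFA, the vascular growth factor, gave -0.65 ± 0.30, NDRG1 -0.84 ± 0.40 and CA12 -0.73 ± 0.36 at 200 mg/kg, none of them past the threshold.

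CA9, the tumor carbonic anhydrase widely used as a hypoxia marker, did not share this pattern. It was at 60.2, 71.4, 33.7 and 60.5 FPKM in vehicle tumors and at 43.6, 25.1, 34.2, 54.7 and 77.6 FPKM after 200 mg/kg, with log2 differences of -0.31 ± 0.31, 0.05 ± 0.32 and -0.05 ± 0.32 at 200, 100 and 30 mg/kg. ANKRD37, an ankyrin repeat gene of the HIF response, gave -0.29 ± 0.37 at 200 mg/kg. At 200 mg/kg the 95% intervals ran from -0.92 to 0.30 for CA9 and from -1.02 to 0.44 for ANKRD37, which includes 0 and also the size seen for PGK1.

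Of the oxygen-sensing genes, EGLN3, a HIF hydroxylase that is itself a HIF target, was at 26.3, 24.2, 28.5 and 27.2 FPKM in vehicle tumors and at 7.39, 22.5, 14.8, 15.0 and 16.0 after 200 mg/kg (log2 -0.84 ± 0.27). After 100 mg/kg it was at 14.7, 8.18, 10.5 and 9.51 FPKM (-1.26 ± 0.29), and it passed the threshold at both doses. EGLN1, the main HIF hydroxylase, gave -0.14 ± 0.15 at 200 mg/kg, and HIF1A gave -0.24 ± 0.18 at 200 mg/kg and -0.01 ± 0.19 at 100 mg/kg. HIF activity is set mostly at the level of the HIF1A protein, which was not measured.

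Of the mitophagy receptors, BNIP3L averaged 123 ± 27.6 FPKM in vehicle and 85.9 ± 13.2 after 200 mg/kg (log2 -0.51 ± 0.17), with the 5 treated tumors below all vehicle tumors, whereas BNIP3 gave -0.38 ± 0.26 with 1 treated tumor below all vehicle tumors. The collagen hydroxylases P4HA1 and P4HA2 gave -0.23 ± 0.12 and -0.11 ± 0.13, and the histone demethylase KDM3A and the MYC antagonist MXI1 gave 0.03 ± 0.19 and -0.05 ± 0.32, all without a call. KDM3A was lower after 100 mg/kg (-0.60 ± 0.20, no call), and was the only member with a higher estimate than vehicle at 200 mg/kg.

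**Figure D2:**
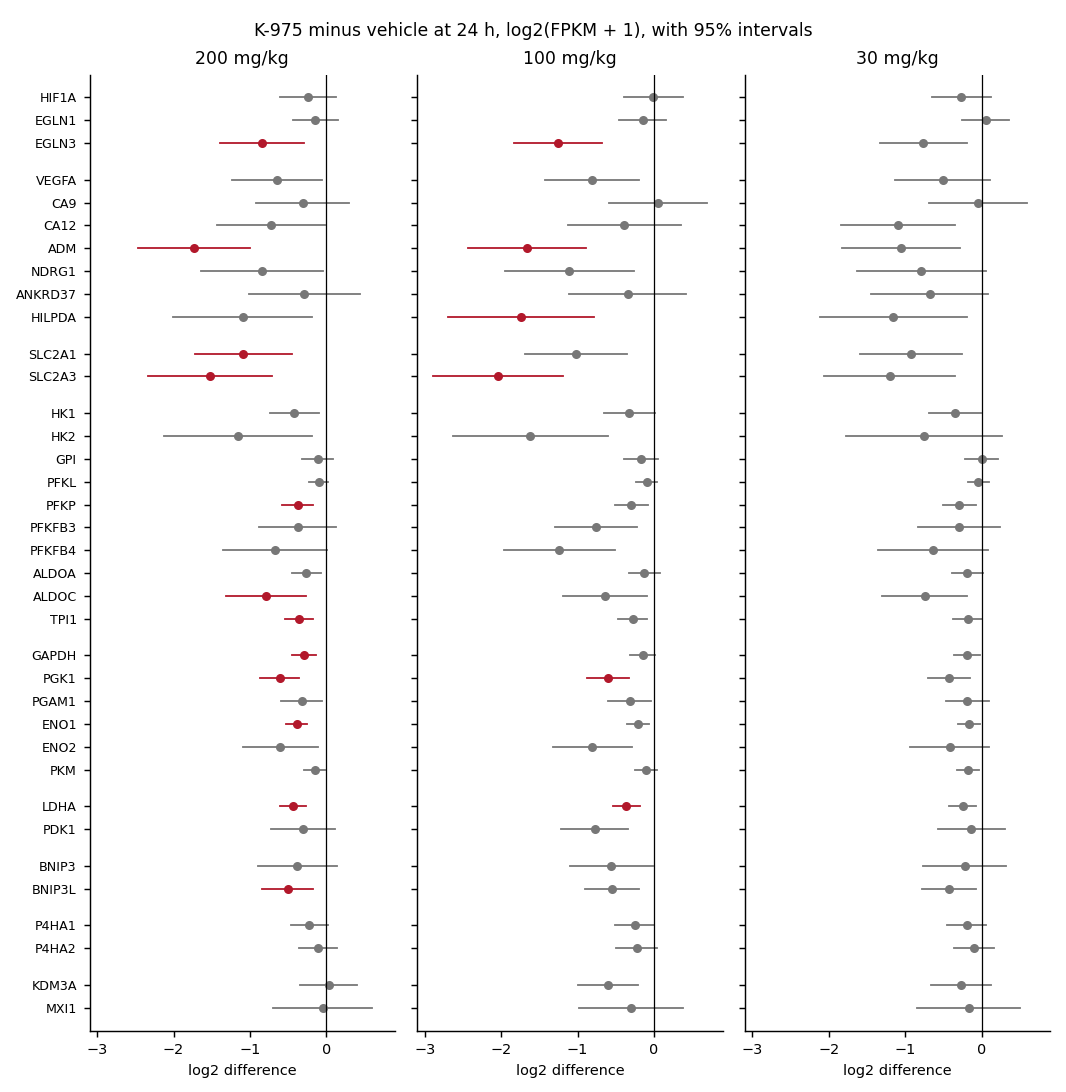
Log2 difference in FPKM + 1 between K-975 and vehicle at 24 h for the 36 members at each dose (points, with 95% confidence intervals), red where the adjusted limma p was below 0.05. Red points number 12, 6 and 0 at 200, 100 and 30 mg/kg, all to the left of 0, and the intervals of HK2, HILPDA, SLC2A3, NDRG1 and ADM are wider than those of PFKL, PKM and ENO1.

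The highest treated tumor was under the lowest vehicle tumor for 10, 13 and 15 members at 200, 100 and 30 mg/kg (3.22%, 2.94% and 2.84% of all genes). Within the 200 mg/kg group, replicate 2 was the highest and replicate 1 the lowest tumor for most of the 12 called genes. Leaving out 1 library gave 4 to 14 members at 200 mg/kg, with 4 without K-975 replicate 1, 6 without vehicle replicate 4 and 7 without K-975 replicate 3. At 100 mg/kg the range was 1 to 7, with 1 without replicate 3 and 3 without replicate 2 of the treated tumors. Over all genes, leaving out 1 library gave 389 to 1538 calls at 200 mg/kg and 30 to 290 at 100 mg/kg. With all 94 libraries 0, 1 and 22 members were called at 200, 100 and 30 mg/kg. The share of all genes called with all 94 libraries is not reported here, so these counts describe the setting only.

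Of the cell type markers, only the mesothelial ones shifted without overlap in the same contrast. At 200 mg/kg 3 of the 8 passed the threshold, MSLN, KRT19 and CALB2, all higher, where 3.8% of all genes were higher. No leukocyte, endothelial, erythroid or fibroblast marker passed it. Host cells are murine, and the treatment of mouse reads is not given in the sources used here. The summed level of 8 mesothelial markers was 1990.15 to 2081.64 FPKM in the 4 vehicle tumors and 2263 to 3621, 2295 to 3289.6 and 2343 to 3319 FPKM after 200, 100 and 30 mg/kg, without overlap. With vehicle and 200 mg/kg, leukocyte markers summed to 148 to 227 and 130.4 to 209.9 FPKM, endothelial markers to 31.0 to 67.9 and 27.1 to 92.5 FPKM, and fibroblast markers to 498 to 608 and 506 to 988 FPKM, each with overlap. At a median of 1 FPKM or more in these groups were 3 and 4 of 6 leukocyte markers, 3 and 4 of 6 fibroblast markers and 1 of 6 endothelial markers (KDR), with ERG at 0. Of the 3 erythroid markers HBB and HBA1 were at 0, and HBA2 was at a median of 1 FPKM or more with vehicle only. The erythroid sum was 0 to 1.85 FPKM with vehicle and 0 to 1.22 after 200 mg/kg, with overlap. Muscle and adipocyte markers summed to at most 0.160 and 0.403 FPKM. The part of these shifts in the member genes was not tested, and in bulk tumors fewer cells of a type cannot be told apart from less RNA per cell.

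At 1 h no member was past the threshold at any dose, where 0%, 0.00767% and 0% of all genes were at 200, 100 and 30 mg/kg (limma, 0, 2 and 0 members at an unadjusted p under 0.05). SLC2A3 averaged 59.8 ± 33.6 FPKM (SD, n = 5) in vehicle, 56.8 ± 8.15 (n = 4) after 200 mg/kg, 44.3 ± 21.3 (n = 5) after 100 mg/kg and 59.0 ± 30.4 (n = 5) after 30 mg/kg. Its log2 differences were 0.09 ± 0.41, -0.35 ± 0.38 and 0.00 ± 0.38, within the spread between tumors. The median over members was 0.06, -0.24 and -0.07.

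At 3-6 h there were again 0 calls at each dose, where 0.069%, 0.43% and 0.0153% of all genes passed (2, 3 and 3 members at an unadjusted limma p under 0.05). SLC2A3 ranged from 15.9 to 115 FPKM with a median of 39.1 in the 10 vehicle tumors and from 25.9 to 90.2 with a median of 35.8 after 200 mg/kg, and the log2 differences were -0.18 ± 0.27, 0.16 ± 0.27 and -0.26 ± 0.27 at 200, 100 and 30 mg/kg. The vehicle and treated tumors overlapped almost completely. The sign depended on the vehicle cage group, at 0.61 and 0.54 for 200 and 30 mg/kg against cage group 2 alone and -0.64 for 100 mg/kg against cage group 3 alone (chosen after seeing the data). ADM came nearest to a call, at 106 ± 67.1 FPKM (SD, n = 10) in vehicle and 56.6 ± 33.3 (n = 10) after 200 mg/kg (log2 -0.83 ± 0.24, limma adjusted p = 0.175). KDM3A had the lowest adjusted limma p at 100 mg/kg (0.37 ± 0.12, adjusted p = 0.192), and PGK1 at 30 mg/kg (-0.25 ± 0.09, adjusted p = 0.464). CCN1 and CCN2 were both lower at this time after 200 mg/kg, as given above for CCN1, and CCN2 was at 6.04 against 9.80 FPKM (-0.63 ± 0.14, limma adjusted p = 0.034).

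The effect of 200 mg/kg at 24 h minus that at 3-6 h was past the threshold for ENO1 (log2 -0.40) and LDHA (-0.39) among the members and for 1.72% of all genes. Since this difference is built on the 24 h contrast, it is a description. The count ranged from 1 to 7 when 1 library was left out (7 without K-975 replicate 2 at 24 h, 5 without replicate 4 of cage group 5, 4 without replicate 5 of vehicle cage group 2 or replicate 2 or 5 of vehicle cage group 3, and 1 without vehicle replicate 1 or 4 or K-975 replicate 1 or 3 at 24 h), and 0 with all 94 libraries. Over all genes, leaving out 1 library gave 63 to 633 calls.

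No difference past the threshold was found between vehicle and no treatment. Compared with untreated tumors, 0 of 36 members and 0% of all genes passed the threshold in each of the 3 studies (limma, 1, 6 and 0 members at an unadjusted p under 0.05 at 1 h, 3-6 h and 24 h). The nearest were PFKFB3 at 1 h (log2 -0.87 ± 0.24, limma adjusted p = 0.618) and BNIP3L at 3-6 h (0.43 ± 0.14, adjusted p = 0.851). At 24 h SLC2A3 averaged 97.8 ± 40.2 FPKM (SD, n = 4) with vehicle and 101 ± 42.4 (n = 5) without. These vehicle tumors were part of the contrast that chose the genes, so the 24 h comparison is a description.

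Tumors that had never received the compound also differed among themselves in members of the set, in part other members than those called at 24 h after K-975. Untreated tumors of the 24 h study had higher levels than untreated tumors of the 3-6 h study for 17 of 36 members, all called in the higher direction, where 4.36% of all genes were called, 2.22% higher and 2.14% lower (median log2 difference 0.47 over members and -0.04 over all genes). The spread of the calls covered most roles. BNIP3L was at 69.9, 88.4, 49.3, 77.3 and 63.6 FPKM in the 3-6 h study and at 149, 124, 115, 143 and 136 in the 24 h study (log2 0.95 ± 0.16, limma adjusted p = 0.0002). SLC2A1 was at 48.1, 73.3, 23.4, 83.9 and 41.8 FPKM and at 199, 93.9, 103, 176 and 173 (1.51 ± 0.30, limma adjusted p = 0.0014). In both genes the 5 tumors of one study lay above all 5 of the other.

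HK2 averaged 18.8 ± 10.5 FPKM (SD, n = 5) in the 3-6 h study and 59.7 ± 17.1 (n = 5) in the 24 h study (log2 1.82 ± 0.46, limma adjusted p = 0.0106), and NDRG1 averaged 225 ± 98.0 and 696 ± 284 FPKM (1.70 ± 0.38, limma adjusted p = 0.0037). CA12 was at 0.702 ± 0.234 and 3.71 ± 0.661 FPKM (1.47 ± 0.33, limma adjusted p = 0.0042), VEGFA at 117 ± 44.7 and 250.4 ± 86.6 (1.13 ± 0.28, limma adjusted p = 0.0091), and SLC2A3 at 37.9 ± 8.46 and 101 ± 42.4 (1.30 ± 0.38, limma adjusted p = 0.034). Of the 6 genes from the triose phosphates to pyruvate 3 were called, PGK1 at 0.59 ± 0.12 (limma adjusted p = 0.0019), GAPDH at 0.31 ± 0.08 (adjusted p = 0.0083) and ENO2 at 0.93 ± 0.23 (adjusted p = 0.0105), and PKM (0.10) and PGAM1 (0.11) were not. LDHA was called at 0.28 ± 0.08 (limma adjusted p = 0.0295). The remaining calls were P4HA1, EGLN3, PFKFB4, HK1, BNIP3 and ALDOA. ENO1 (0.20, limma adjusted p = 0.062), HILPDA (1.25, adjusted p = 0.081) and ADM (0.96, adjusted p = 0.096) did not pass, and CA9 (0.03), EGLN1 (0.01) and P4HA2 (-0.03) had estimates near 0.

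For 14 members the 5 tumors of the 24 h study lay above all 5 of the 3-6 h study (1.72% of all genes). The count of 17 was 5 without replicate 3 of the 3-6 h study, the tumor with the lowest level in many of these genes, 11 without its replicate 5, 9 without replicate 1 of the 24 h study, and 19 at most. It was 11 when these groups alone were fitted and 0 with all 94 libraries. Over all genes, leaving out 1 library gave 240 to 838 calls. Leukocyte markers summed to 56.1 to 135 FPKM in the 3-6 h study and 146 to 269 in the 24 h study, endothelial markers to 73.4 to 106 and 35.3 to 64.1, and mesothelial markers to 2345 to 3614 and 1713 to 2621. Their part in the member genes was not tested. Against the untreated tumors of the 1 h study, 0 members were called in the 3-6 h study (median log2 -0.14, 0.0997% of all genes called, 12 members at an unadjusted limma p under 0.05). In the 24 h study 0 were called as well (median 0.23, 0.00767% of all genes, 13 members at an unadjusted limma p under 0.05).

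The 2 vehicle cage groups of the 3-6 h study also differed. In cage group 3, 9 of 36 members were higher than in cage group 2, where 0.33% of all genes were called, 0.268% higher and 0.0614% lower (median 0.43 over members, -0.01 over all genes). HK2 was at 10.1, 10.2, 4.21, 9.57 and 6.66 FPKM in cage group 2 and at 26.9, 48.4, 43.5, 33.6 and 62.5 in cage group 3 (log2 2.26 ± 0.46, limma adjusted p = 0.0087). SLC2A3 was at 39.1, 15.9, 17.2, 34.9 and 26.1 FPKM and at 39.1, 108, 82.5, 69.0 and 115 (1.59 ± 0.38, limma adjusted p = 0.039). The HK2 values did not overlap, and the lowest SLC2A3 tumor of cage group 3 was level with the highest of cage group 2.

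The other called members were PFKFB4 (1.52 ± 0.32, limma adjusted p = 0.013), PDK1 (0.89 ± 0.20, adjusted p = 0.016), EGLN3 (1.12 ± 0.26, adjusted p = 0.024), SLC2A1 (1.30 ± 0.30, adjusted p = 0.024), HILPDA (1.83 ± 0.43, adjusted p = 0.031), PGK1 (0.50 ± 0.12, adjusted p = 0.039) and ENO2 (0.94 ± 0.23, adjusted p = 0.04). Both glucose transporters, SLC2A1 and SLC2A3, were among the 9 calls, and LDHA (0.19), ENO1 (0.13) and CA9 (0.16) were not. All 5 tumors of cage group 3 lay above all 5 of cage group 2 for 9 members (0.698% of all genes). The count was 0 without replicate 3 of cage group 2, 3 without its replicate 2, 2 without replicate 2 or 5 of cage group 3, 3 without its replicate 3, and 12 at most, and it was 1 when these groups alone were fitted and 0 with all 94 libraries. Over all genes, leaving out 1 library gave 3 to 137 calls. The pairs of cage groups at 200, 100 and 30 mg/kg gave 0 called members (0.0153%, 0.046% and 0% of all genes, with 0, 0 and 2 members at an unadjusted limma p under 0.05). That the vehicle pair differed from these pairs was not tested. Whether the cage groups stand for 3 h and 6 h cannot be read from the labels.

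**Figure D3:**
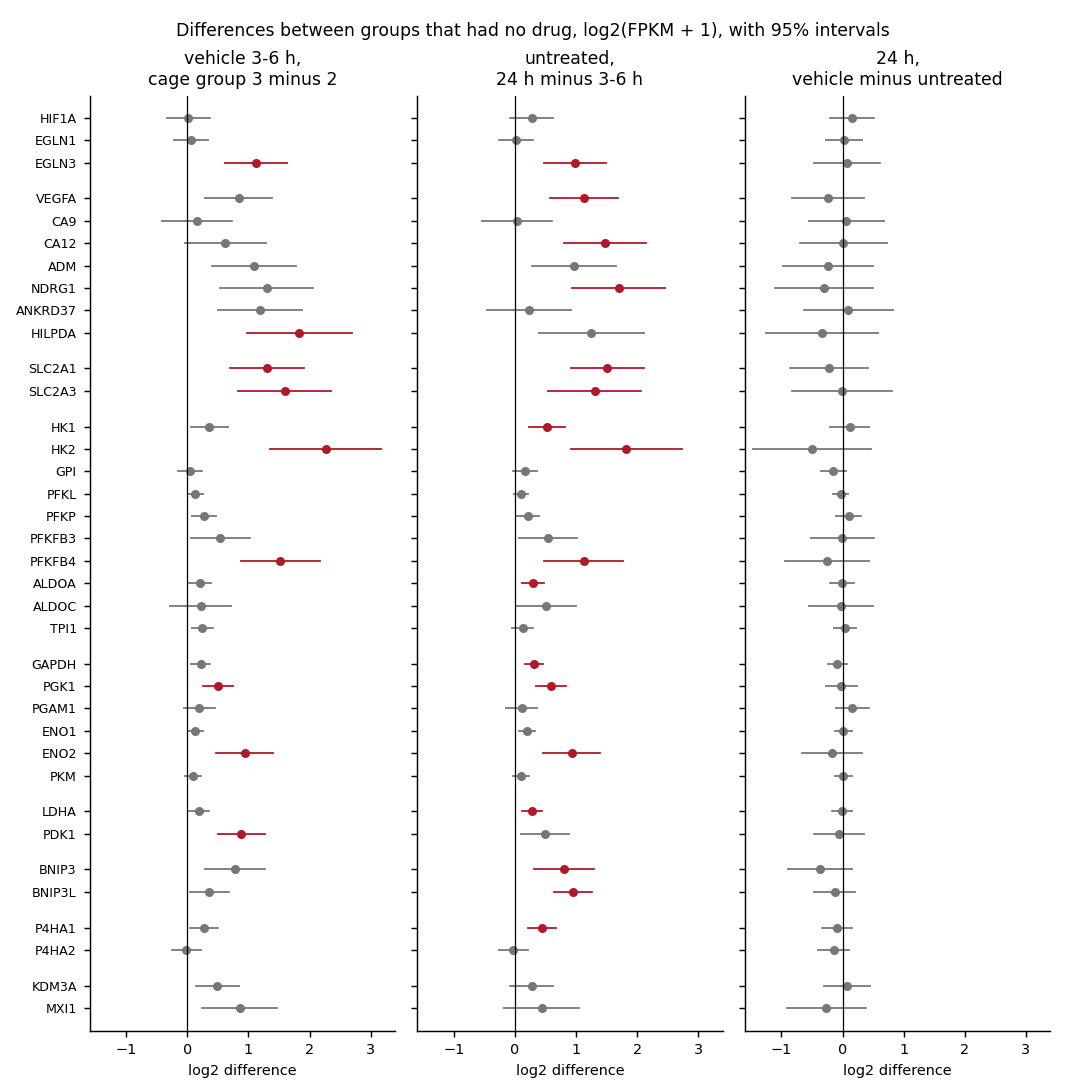
Log2 difference in FPKM + 1 for the 36 members between groups that received no compound (points, with 95% confidence intervals), red where the adjusted limma p was below 0.05. Vehicle cage group 3 minus cage group 2 has 9 red points and untreated tumors at 24 h minus 3-6 h has 17, all to the right of 0, and vehicle minus untreated tumors at 24 h has 0.

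The members also varied together among tumors of one group. To see this without any difference between groups, the level of each gene was fitted on that of SLC2A3 with 1 intercept per group, over the 91 libraries. Of the other 35 members, 30 had a slope past the adjusted limma p of 0.05, all positive, where 9.81% of 13035 genes were called and 5.1% were positive (median slope 0.24 over members and -0.01 over all genes, in log2 units per log2 unit of SLC2A3). Both genes of a pair come from the same library, so any factor of the library enters both.

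NDRG1 had the steepest relation for its error of all genes (slope 0.77 ± 0.068, limma adjusted p = 5.3e-14), followed by SLC2A1 (0.61 ± 0.057, adjusted p = 4.5e-13), VEGFA (0.55 ± 0.054, adjusted p = 1.9e-12), ENO2 (0.46 ± 0.045, adjusted p = 2.4e-12) and HK2 (0.88 ± 0.092, adjusted p = 3.6e-11). The first 5 genes by p among all 13035 were therefore members. LDHA ranked 7, EGLN3 9, ALDOA 14, GAPDH 20, HILPDA 23 and PGK1 44. CA9, with 0.29 ± 0.079 (limma adjusted p = 0.0085), was called as well. PKM (0.05), HIF1A (0.12), ANKRD37 (0.10), PGAM1 (0.03) and P4HA2 (0.02) were not. In untreated and vehicle tumors alone, 20 of 35 were called, and without the 2 libraries farthest from their group mean of SLC2A3, 28 were. The share of all genes called in these refits is not reported here.

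The same fit on CA9 gave fewer members among more genes. With CA9, 16 of 35 members were called, all positive, where 14.2% of genes were called and 6.66% were positive (median slope 0.16). GPI (0.20 ± 0.031, limma adjusted p = 3.8e-06), KDM3A (0.35, adjusted p = 1.8e-05), P4HA1 (0.22, adjusted p = 2.8e-05) and MXI1 (0.59 ± 0.10, adjusted p = 3e-05) led. Slopes on CA9 were 0.01 for ADM and 0.01 for CA12, and HK2 was not called (0.35, limma adjusted p = 0.19). In untreated and vehicle tumors alone 0 members and 0 genes were called on CA9, and with all 94 libraries 32 members were. The share of all genes called with all 94 libraries is not reported here. The slopes on SLC2A3 and on CA9 were not tested against each other.

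**Figure D4:**
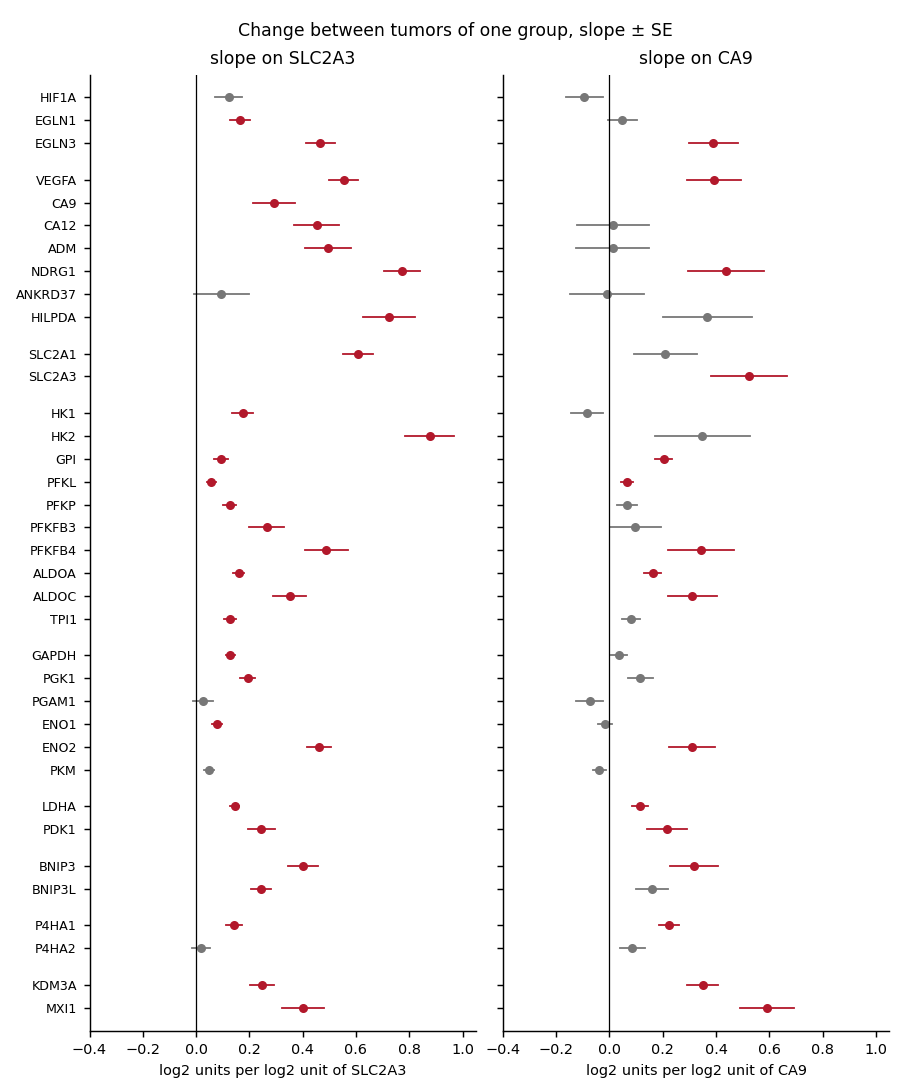
Slope (± SE) of each member's log2(FPKM + 1) on that of SLC2A3 and on that of CA9 among tumors of the same group, in log2 units per log2 unit, for 91 libraries. On SLC2A3 the slopes of HK2 (0.88), NDRG1 (0.77) and HILPDA (0.72) are the steepest, and those of PKM, PGAM1 and P4HA2 lie near 0.

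**Figure D5:**
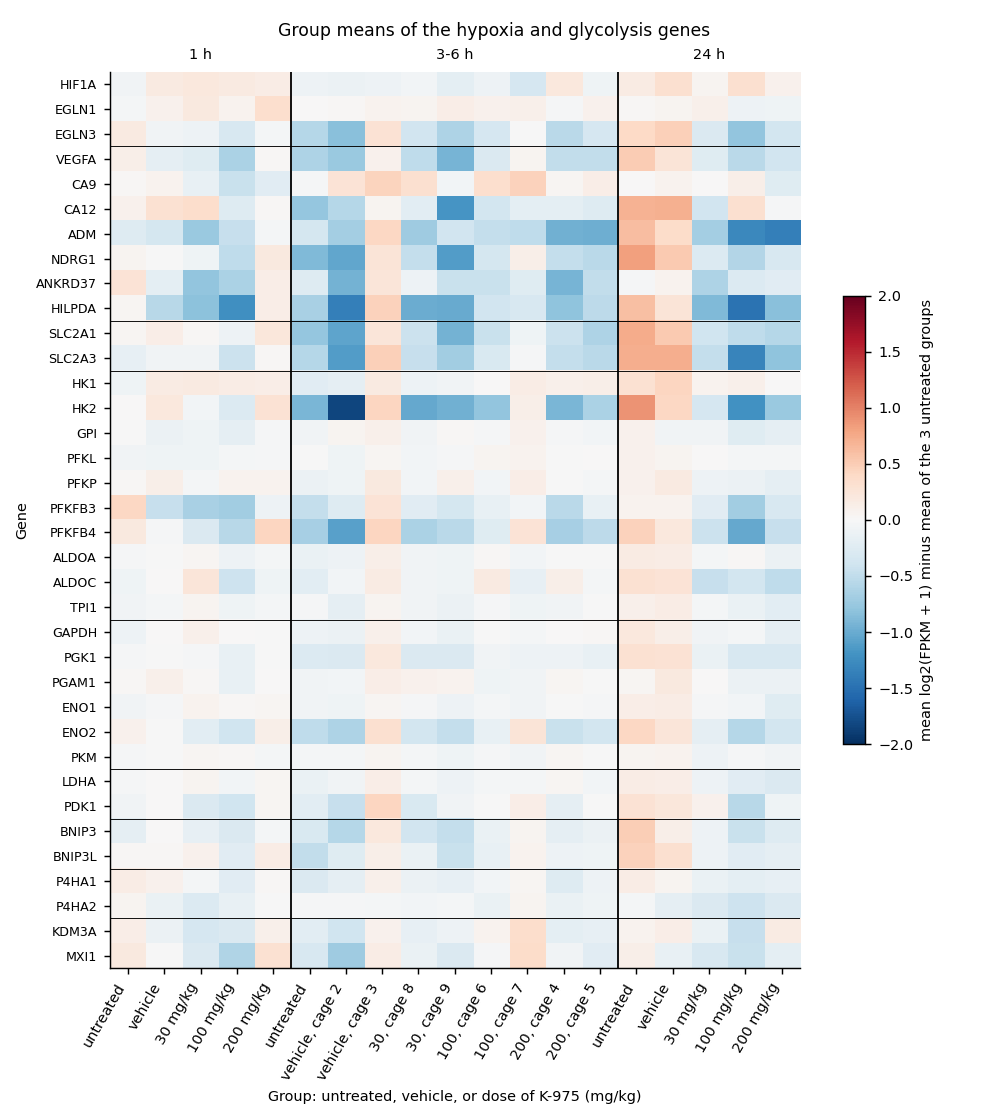
Group means of log2(FPKM + 1) for the 36 members in each of the 19 groups, as the difference from the mean of the 3 untreated groups (color, from -1.83 to 0.904 log2 units). The 24 h K-975 groups are low for SLC2A3, ADM, HK2 and HILPDA, and so are vehicle cage group 2 and the untreated tumors of the 3-6 h study for HK2.

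SLC2A3 shows how uneven the inducible members were across groups with and without the compound. The 3-6 h vehicle cage group 3 and the untreated and vehicle tumors of the 24 h study had high SLC2A3 (82.8 ± 30.8, 101 ± 42.4 and 97.8 ± 40.2 FPKM), and vehicle cage group 2, untreated tumors at 3-6 h and the 200 and 100 mg/kg tumors at 24 h were low (26.6 ± 10.3, 37.9 ± 8.46, 35.1 ± 20.0 and 22.3 ± 5.47 FPKM). Untreated tumors at 1 h stood between at 52.5 ± 19.1 FPKM. These levels are set side by side across studies and were not tested against each other.

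Other lists of the pathway are set here beside the 7.41% of all genes called at 24 h with 200 mg/kg. Of 11 other regulators of the HIF pathway tested, 2 passed the threshold, both lower: EPAS1, the alpha subunit of HIF2 (82.9 against 50.5 FPKM, log2 -0.74 ± 0.22), and HSP90AB1, a chaperone (-0.19 ± 0.06). Of 27 other hypoxia-induced genes, 3 passed, all lower (median -0.26 over the list), among them the collagen crosslinkers LOX (680.5 and 344 FPKM, -1.05 ± 0.31) and LOXL2 (254 and 162 FPKM, -0.66 ± 0.14). Of 13 other glycolytic isoenzymes and glucose transporters, 1 passed, PGM1, which links glycogen to glycolysis (256 and 193 FPKM, -0.41 ± 0.06), and it passed at 100 mg/kg as well (-0.36 ± 0.06). At 30 mg/kg none of these genes passed, and at 3-6 h none of these lists held a call at any dose.

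Between the 24 h and the 3-6 h study, 9 of 27 other hypoxia-induced genes were higher and 1 was lower, where 2.22% and 2.14% of all genes were. Calls were made for 0 of 11 HIF regulators and 1 of 13 other glycolytic genes, beside 4.36% of all genes. The last was the transporter SLC2A6 (log2 0.82, limma adjusted p = 0.0033). LOX (log2 1.46 ± 0.29, limma adjusted p = 0.0013) and LOXL2 (0.63 ± 0.13, adjusted p = 0.0016) were among the higher genes, and VLDLR, a lipoprotein receptor, was the lower one (-0.50 ± 0.16, adjusted p = 0.046). Between the vehicle cage groups, MAFF, a small bZIP factor (1.54 ± 0.29, limma adjusted p = 0.0039), and WSB1 (0.55 ± 0.13, adjusted p = 0.030) were the calls of the hypoxia-induced list. Of all genes 0.33% were called there. On SLC2A3, 20 of the 27 had a positive slope past the threshold, where 5.1% of all genes did.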

How the data were processed

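RNA of 94 NCI-H226 tumors was captured with KAPA HyperCap probes and sequenced as paired ends. The authors deposited 1 table of FPKM, with 20555 entries. STAR and GRCh38 are named in the submitters' processing notes, and the quantifier, the annotation and the treatment of mouse reads are not given in the sources used here. FPKM hold no counts, so no count test or counting interval was possible. Of 284 gene IDs with more than 1 entry, 316 entries were left out, keeping 20239 genes, and 32 blank cells (0 in members) were read as 0. EGLN3 had a second entry at 0 in all libraries, which was not kept.

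The labels gave 19 groups, split by cage group at 3-6 h. Log2(FPKM + 1) was fitted with limma 3.58.1 (R 4.3.3), 1 coefficient per group, moderated with trend and robust settings, for 13036 genes at 1 FPKM or more in at least 4 libraries. The adjusted p is Benjamini-Hochberg over all genes tested, with a threshold of 0.05. At 3-6 h the coefficients of the cage groups were averaged for each dose and for vehicle. Fold changes understate low genes. Replicates are tumors of separate mice. Libraries with fewer than 10000 genes at 1 FPKM were left out (3 of 94), a limit set with the values known.

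The members, the gene lists, the tests and that limit were chosen with earlier results of these data known. All members are named, and of each further list up to 3 genes with the largest difference past the threshold in a comparison with vehicle at 3-6 h or 24 h. Genes of those lists named in other comparisons were chosen after their values were seen. Some results for single genes of these lists are not reported here. The scripts were tested on simulated data. Alternatives were all 94 libraries, with and without array weights, another pseudocount (0.1), no filter, median-ratio scaling, quantile normalization, the compared groups alone, untreated controls, single cage groups and leaving out each library.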

Additional observations from a re-analysis of the deposited data

Results flagged for a closer look

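In groups of 4 or 5 tumors, 95 sets of values of named genes were checked for a tumor far from the rest of its group, and 3 were found, where chance gives about 1 in 20. SLC2A3 was at 81.5 FPKM in replicate 4 of the 100 mg/kg group at 1 h, with the other 4 tumors between 29.5 and 42.8 FPKM. It was at 90.2 FPKM in replicate 2 of cage group 4 (200 mg/kg, 3-6 h), with the others between 27.5 and 38.8 FPKM. PFKP was at 190.1 FPKM in replicate 2 of the 200 mg/kg group at 24 h, with the others between 139.0 and 152 FPKM.

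The effect of 200 mg/kg differed between 24 h and 3-6 h for ENO1 (log2 -0.40, the 24 h effect minus the 3-6 h effect) and for LDHA (-0.39), by limma's test of the difference. The 24 h contrast had been used to choose the genes.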

How the results depend on the processing

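No paired analysis was possible because the labels number no replicates across groups, and the numbers used here follow accession order. The calls at 24 h and those between groups without the compound depended on the 3 shallow libraries and on single tumors. With all 94 libraries the called members numbered 0, 1 and 22 at 200, 100 and 30 mg/kg at 24 h, 0 for untreated 24 h minus 3-6 h, 0 for the vehicle cage groups, 0 for the change of effect from 3-6 h to 24 h and 32 for the slope on CA9. With array weights they were 2 for untreated 3-6 h minus 1 h, 1 for 24 h minus 1 h and 7 for the change of effect, which was 4 with median-ratio scaling. With only the compared groups fitted they were 4, 3 and 2 at 200, 100 and 30 mg/kg at 24 h, 1 and 11 for untreated 24 h minus 1 h and minus 3-6 h, 1 for the vehicle cage groups and 1 for the change of effect. Untreated tumors in place of vehicle gave 15 at 100 mg/kg and 24 h. Against vehicle cage group 2 only, 100 mg/kg at 3-6 h had 1 called member, and against cage group 3 only, 200 and 30 mg/kg had 1 each (added after seeing the data). The CA9 slope in untreated and vehicle tumors gave 0. Leaving out 1 library gave 4 to 14 members (200 mg/kg, 24 h), 1 to 7 (100 mg/kg, 24 h), 5 to 19 (untreated 24 h minus 3-6 h), 0 to 12 (vehicle cage groups) and 1 to 7 (change of effect). In the same order, the calls over all genes were 389 to 1538, 30 to 290, 240 to 838, 3 to 137 and 63 to 633. A count of members given without the share of all genes describes its setting only.

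The SLC2A3 log2 difference from vehicle changed sign under some alternatives at 1 h and 3-6 h and under none at 24 h. At 1 h it was -0.14 at 200 mg/kg with all 94 libraries, and at 30 mg/kg -0.11 with array weights and -0.0023 with median-ratio scaling. Leaving out 1 library gave -0.20 to 0.37 at 200 mg/kg and -0.29 to 0.28 at 30 mg/kg. At 3-6 h it was 0.065 at 200 mg/kg against untreated tumors, 0.61 and 0.54 at 200 and 30 mg/kg against vehicle cage group 2, and -0.64 at 100 mg/kg against cage group 3. For single genes, 169 of 212 values under the other alternatives kept their direction and side of the threshold, 35 lost the call, 1 gained it and 7 changed sign. Depth could not be tested, since FPKM hold no counts. The causes were not tested.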

Other observations

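Of 5 genes of glucose sensing, 2 were higher at 24 h after 200 mg/kg and 1 after 100 mg/kg, where 3.8% and 0.583% of all genes were higher. TXNIP, which restrains glucose uptake and is induced by glucose metabolites, was at 33.7 ± 7.75 FPKM (SD, n = 4) in vehicle tumors, 90.3 ± 22.2 (n = 5) after 200 mg/kg and 76.1 ± 27.7 (n = 4) after 100 mg/kg, log2 differences of 1.38 ± 0.29 (SE) and 1.10 ± 0.30. Its relative ARRDC4 was higher by 0.66 ± 0.20 at 200 mg/kg, and both were past the adjusted limma threshold at that dose. Between untreated tumors of the 24 h and the 3-6 h study, where the members were higher, TXNIP was lower (-0.89 ± 0.27, limma adjusted p = 0.040).

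Of 15 genes of lactate and pyruvate handling, 1 passed at 200 mg/kg and 24 h, near the 7.41% of all genes called there. PDK2, a kinase of the pyruvate dehydrogenase complex, was at 14.1 FPKM in vehicle and 29.6 FPKM after 200 mg/kg (log2 0.99 ± 0.19), in the direction opposite to the estimate for PDK1. Of 14 genes of the pentose phosphate and glycogen pathways, GBE1, the glycogen branching enzyme, was lower at that dose and time (-0.65 ± 0.17). At 3-6 h, PYGL, the liver glycogen phosphorylase, was lower after 100 mg/kg (-0.33 ± 0.08, limma adjusted p = 0.021), the only call of these lists at that time.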
